A study of Zea mays with 6 samples.

Results

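A set of 52 maize genes stood far higher in the leaf sheath of GARR2 knockout seedlings (GARR2KO) than in that of wild-type seedlings (WT). The genes were selected on the measured values themselves, out of 44146 gene identifiers. A gene entered the set when its mean over the 6 libraries reached 1 FPKM, when its mean log2(FPKM + 1) was at least 2 units higher in GARR2KO than in WT, and when all 3 GARR2KO values lay above all 3 WT values. A further condition was at least 1 WT value above 0. FPKM is the number of fragments per kilobase of gene, scaled by a total for each library. Identifiers numbered 8874 to 9566, 19399 to 19957, 20340 to 20588 and 44677 to 44899 were left out, because these 4 runs had been picked earlier for their density of changed genes. Because the GARR2KO and WT values chose the genes, the rise itself is a description and is not tested.

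The study sequenced RNA from the sheath of leaf 2 of seedlings with 3 leaves, in 3 GARR2KO and 3 WT libraries described as biological replicates. Reads were 150 bp, in pairs, and the seedlings were untreated. The sources used here do not give the way the knockout was made, the inbred background, the origin of the WT plants or the harvest days, so p-values measure the spread between these libraries only. Genotype and any batch common to 1 genotype's libraries cannot be told apart.

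Long noncoding RNAs are transcripts without a coding role that can act on the expression of other genes, near to or far from their own locus. GARR2 is known as a long noncoding RNA of maize that responds to gibberellin, the hormone that drives elongation of stems and leaf sheaths in grasses. The sheath is the lower part of the leaf, which wraps the shoot and holds it upright. The comparison asks which transcripts differ in this tissue when GARR2 is knocked out. The files do not pair identifiers with gene names, and 0 of them matched the RefSeq gene table at hand, which belongs to another assembly. The genes are therefore given by identifier, with no role and no sequence. GARR2 itself was not analysed here, and neither the genotype nor the tissue could be checked on marker genes.

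Each library listed 28013 to 28167 genes above 0 in GARR2KO and 27763 to 28033 in WT. Whole reads could be recovered from the steps of the FPKM values, and numbered 17723726 to 19182497 over the listed genes per GARR2KO library and 17750725 to 20722307 per WT library. For a 2 kb gene, 1 read corresponded to 0.0247 to 0.0271 FPKM in GARR2KO and 0.024 to 0.0283 FPKM in WT. The scaling totals that the steps imply were not the recovered reads: in WT replicate 3 the total, 17656864, was the smaller. Summed FPKM was lower in every GARR2KO library, at 618107 to 625428, than in every WT library, at 633512 to 675513.

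Among the 21531 genes whose mean reached 1 FPKM, 93 (0.432%) had a difference of at least 2 with all GARR2KO values above all WT values. Of these, 29 were at 0 in every WT library and 12 others lay in the left-out runs, which leaves the 52. Over all tested genes the GARR2KO values lay wholly above the WT values in 26.8%, and 20.1% were called higher in GARR2KO by limma-trend at an adjusted p under 0.05. All 52 genes meet both conditions, the first by the rule, so nothing is read from that count. Their differences on the log2(FPKM + 1) scale ran from 2.02 to 5.56, with a median of 2.57, where the median of all tested genes was -0.01. At least 3 units separated the genotypes in 17 genes and at least 4 units in 8. In bulk tissue, more cells of a type that expresses a gene and more RNA of it per cell cannot be told apart.

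**Figure D1:**
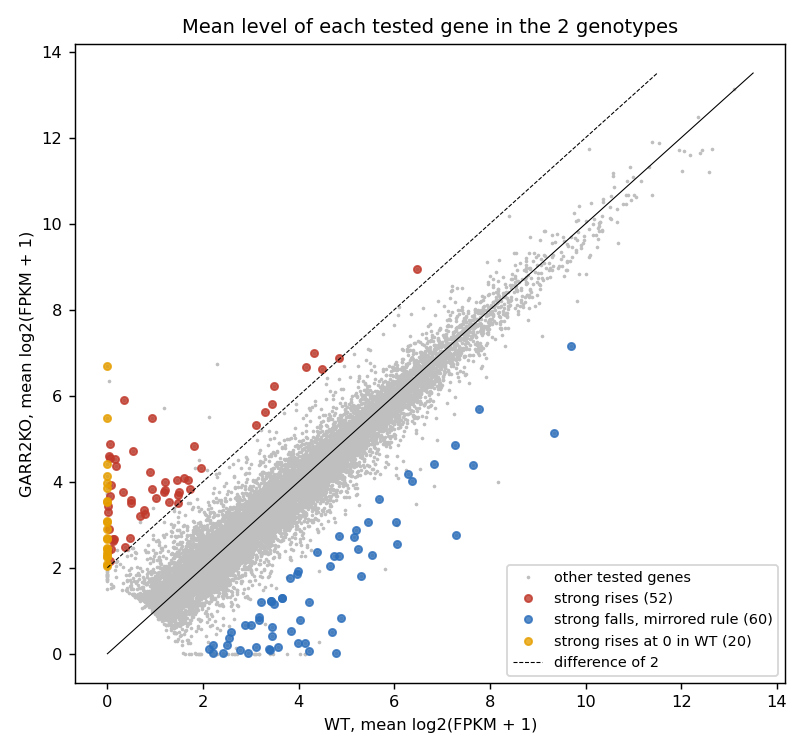
Mean log2(FPKM + 1) over 3 libraries of each tested gene, GARR2KO on the vertical and WT on the horizontal axis, with the 52 strong rises, the 60 genes that fell by the mirrored rule and the 20 strong rises at 0 in all WT libraries in colour. The solid line marks equal levels and the dashed line a difference of 2 units, which no strong rise lies below because it is part of the rule.

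The 52 genes were unlike each other in where they started. By WT mean, 22 were at trace level (under 0.5 FPKM), 21 were low (0.5 to 5 FPKM) and 9 were well expressed (7.60 to 88.4 FPKM). These class limits were set after the values had been seen, and no gene had a WT mean between 2.91 and 7.60 FPKM. In WT sheaths the median gene of the set sat at percentile 1.03 of the tested genes. In GARR2KO sheaths the median stood at percentile 63.1. The low WT percentile follows in part from how genes were admitted. The ranking left out genes whose 6 libraries averaged under 1 FPKM. A gene with a WT mean under 1 FPKM was thus ranked only if its GARR2KO mean exceeded 1 FPKM. This applied to 29 of the 52 genes, so the contrast of percentiles is not read as a result. The mean level was at least 10 FPKM for 38 of the 52 in GARR2KO.

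**Figure D2:**
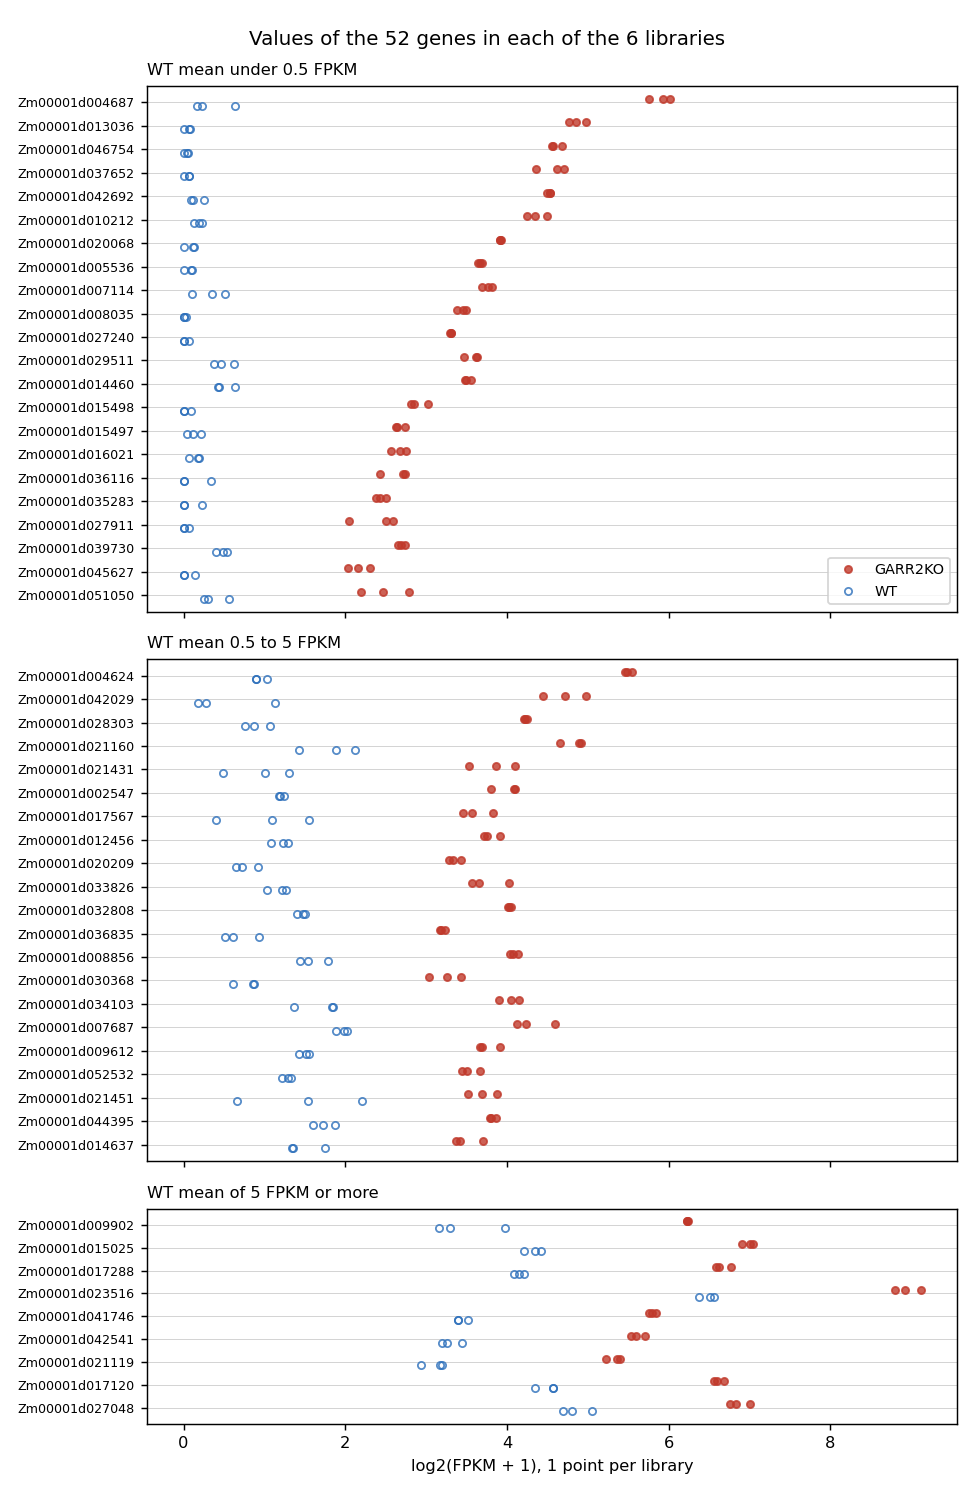
log2(FPKM + 1) of each of the 52 genes in the 3 GARR2KO libraries (filled red) and the 3 WT libraries (open blue), 1 point per library, in 3 panels by WT mean and sorted by difference within a panel. The points of the genotypes do not overlap for any gene, which the rule requires, and the WT points of the upper panel lie near 0.

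Among the trace genes, Zm00001d004687 had the largest difference on the log2(FPKM + 1) scale, though with a pseudocount of 0.1 in place of 1 its difference, 7.44, was below those of Zm00001d013036 (7.72), Zm00001d046754 (7.57) and Zm00001d037652 (7.45). It had 63.6, 53.0 and 59.8 FPKM in the GARR2KO libraries, against 0.557, 0.168 and 0.119 FPKM in the WT libraries. Its log2 difference was 5.56, and it had 3237 reads in GARR2KO and 16 in WT. Of the 16 WT reads, 11 came from WT replicate 1, so the WT level varied among replicates far more than the GARR2KO level. With the scaling totals taken into account, its reads were 200.4 times as many in GARR2KO, with an exact 95% counting interval of 123 to 351.

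A trio of genes combined GARR2KO levels of over 20 FPKM with a single read in each of only 2 WT libraries. Zm00001d013036 had 26.3, 30.6 and 27.8 FPKM in GARR2KO and 0.0514, 0 and 0.0607 FPKM in WT. Zm00001d046754 had 24.7, 22.6 and 22.8 FPKM in GARR2KO and 0.0342, 0 and 0.0403 FPKM in WT. Zm00001d037652 had 23.6, 25 and 19.6 FPKM in GARR2KO and 0, 0.0468 and 0.05 FPKM in WT. In each of these genes the 2 WT reads set the precision of the ratio. It was 754 (208 to 6232) for Zm00001d013036, 942 (260 to 7786) for Zm00001d046754 and 738 (204 to 6102) for Zm00001d037652.

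A pair of longer genes at similar GARR2KO levels had more WT reads and narrower intervals. Zm00001d042692, of 4622 bp, had 21.6, 22.1 and 22.2 FPKM in GARR2KO and 0.0831, 0.0688 and 0.196 FPKM in WT. Its 30 WT reads set the ratio at 194 (136 to 288). Zm00001d010212 had 18.1, 21.6 and 19.3 FPKM in GARR2KO and 0.169, 0.0930 and 0.139 FPKM in WT, a ratio of 145 (95.9 to 232). Every WT library held reads of both genes, so a low WT transcript level was counted in all replicates.

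Zm00001d020068 and Zm00001d005536 closed the 10 largest differences of the set on the log2(FPKM + 1) scale. Zm00001d020068 had 14.1, 14.1 and 14.2 FPKM in GARR2KO and 0.0800, 0 and 0.0944 FPKM in WT. Zm00001d005536 had 11.9, 11.53 and 11.7 FPKM in GARR2KO and 0.0651, 0.0719 and 0 FPKM in WT. In both genes the GARR2KO replicates were nearly equal, with a coefficient of variation of 0.327% for Zm00001d020068 and 1.46% for Zm00001d005536, while 1 WT library was at 0. The GARR2KO values came from 342, 313 and 327 reads for the first gene and 177, 157 and 166 for the second. At such read numbers, coefficients this small lie below counting error and are not read as a trait of the genes.

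Next-door identifiers Zm00001d015497 and Zm00001d015498 were both in the set, the only pair of members that were neighbours among the tested genes. Zm00001d015497 had 5.16, 5.23 and 5.70 FPKM in GARR2KO and 0.159, 0.0808 and 0.0288 FPKM in WT. Zm00001d015498 had 6.21, 7.13 and 6.02 FPKM in GARR2KO and 0, 0 and 0.0697 FPKM in WT. They thus reached similar GARR2KO levels, 5.36 ± 0.293 and 6.45 ± 0.594 FPKM (SD, n = 3), although the recovered lengths were 3935 bp for the first and 812 bp for the second. Reads from overlapping genes cannot be told apart here, because no source used here says whether counting used strand.

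The WT side of the trace genes often rested on very few reads. Of the 52 genes, 10 had 3 or fewer reads over the 3 WT libraries. A WT library at 0 occurred in 12 genes, 1 library in 5 of them and 2 libraries in the other 7. These 7 differ from the genes silent in WT only by the reads of 1 library. The fewest WT reads, 1 each, were those of Zm00001d008035, Zm00001d015498 and Zm00001d027911, which were named after their values were seen. Zm00001d008035 had 1236 reads in GARR2KO against that 1 read, a ratio of 1224 with an interval of 219 to 48384. Zm00001d027240, chosen in the same way, had 8.91, 8.83 and 8.89 FPKM in GARR2KO and 0, 0.0437 and 0 FPKM in WT, and all 5 of its WT reads came from replicate 2. Over the 22 trace genes, the WT reads per gene ran from 1 to 55, and the ratio from 14.2 to 1224, with a median of 169.8. Counting intervals cover counting error only, since reads are not independent molecules.

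**Figure D3:**
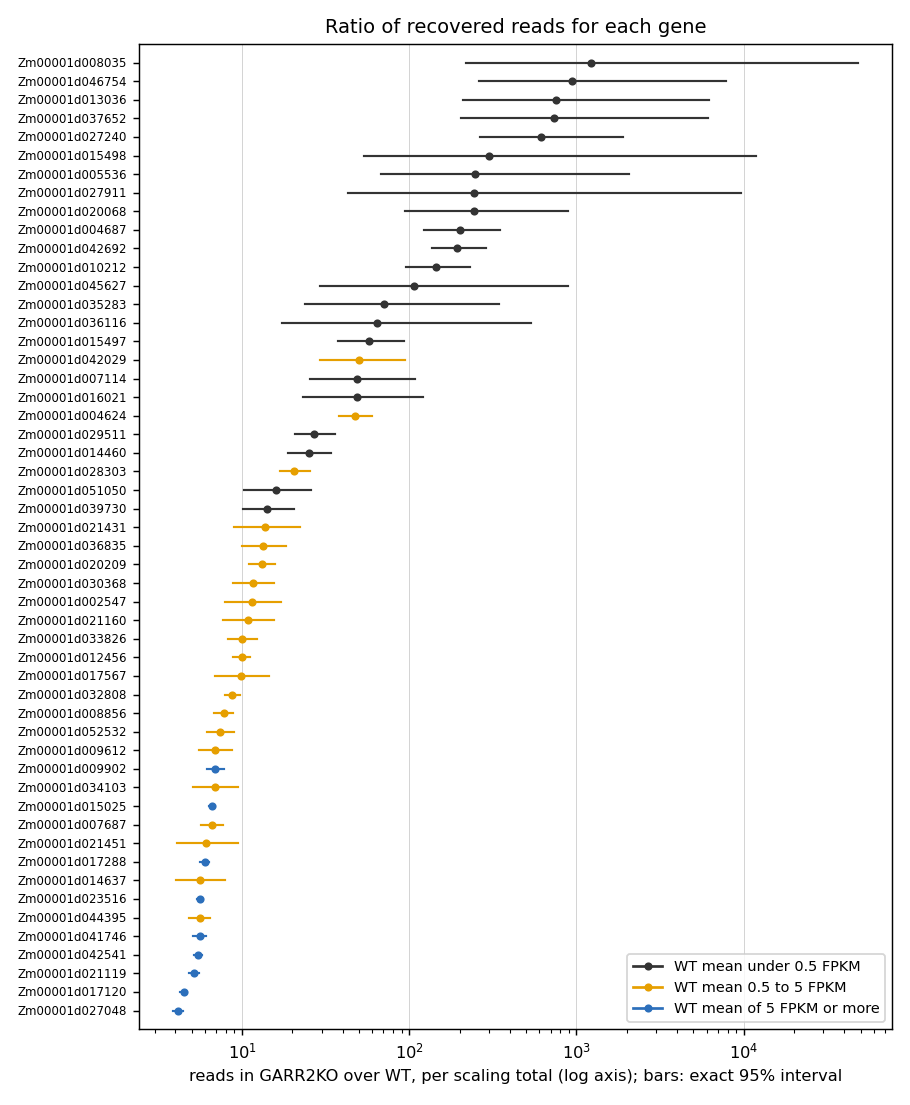
Ratio of recovered reads in GARR2KO over WT for each of the 52 genes, each divided by the summed scaling totals of its genotype, on a log axis. Bars are exact 95% counting intervals and colours give the WT level. The intervals of the genes with 1 to 3 WT reads span over 1 order of magnitude, while those of the 9 well expressed genes lie between 3.89 and 7.80. With its pseudocount, the rule itself requires larger ratios at lower WT levels.

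Among the 21 low genes, Zm00001d004624 had the largest difference on the log2(FPKM + 1) scale. It had 42.8, 43.6 and 45.6 FPKM in GARR2KO and 0.857, 1.05 and 0.862 FPKM in WT, a log2 difference of 4.55. Both genotypes were tight, and the ratio of reads was 47.7 (38.2 to 60.3). Zm00001d042029 had 30.5, 20.7 and 25.2 FPKM in GARR2KO and 0.216, 1.19 and 0.128 FPKM in WT, a difference of 4.18. Of its 13 WT reads, 10 lay in WT replicate 2, which alone lifts its WT mean above 0.5 FPKM and into the low class. By the ratio of reads, 50.2 (29.2 to 94.8), its interval overlapped that of Zm00001d004624, and with a pseudocount of 0.1 its difference was the larger, at 5.8 against 5.43 for Zm00001d004624. Zm00001d007687 had the highest WT mean among the low genes. It had 17.8, 16.4 and 23.2 FPKM in GARR2KO and 2.68, 2.96 and 3.07 FPKM in WT, a difference of 2.35. Over the 21 low genes the GARR2KO means ran from 8.16 to 44.0 FPKM and the ratios of reads from 5.59 to 50.2, with a median of 9.97.

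The 9 well expressed genes differed by a narrower range of ratios. Their ratios of reads lay between 4.16 and 6.92, with a median of 5.57. Zm00001d023516 was the most abundant transcript of the set. It had 483, 443 and 553 FPKM in GARR2KO and 89.8, 82.2 and 93.1 FPKM in WT, which put it at percentile 99.4 of the tested genes in GARR2KO and at percentile 94.5 in WT. It was thus already abundant in WT and was measured from 13985 reads in GARR2KO and 2478 in WT.

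Next in abundance were Zm00001d015025, Zm00001d027048, Zm00001d017288 and Zm00001d017120. Zm00001d015025 had 128, 119 and 131 FPKM in GARR2KO and 19.3, 17.5 and 20.4 FPKM in WT. Zm00001d027048 had 107, 128 and 112 FPKM in GARR2KO and 24.8, 27.0 and 32.0 FPKM in WT. Its ratio, 4.16 (3.89 to 4.46), was the lowest of the 52. Zm00001d017288 had 95.1, 108 and 97.4 FPKM in GARR2KO and 17.5, 16.7 and 16.1 FPKM in WT. Zm00001d017120 had 93.0, 102 and 95.9 FPKM in GARR2KO and 22.8, 19.3 and 22.7 FPKM in WT. In all 4 genes the lowest GARR2KO library was more than 3 times as high as the highest WT library.

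The other well expressed genes lay at 39.2 to 74.0 FPKM in GARR2KO. Zm00001d009902 had 74.0, 73.6 and 74.6 FPKM in GARR2KO and 14.7, 8.83 and 7.94 FPKM in WT, so WT replicate 1 stood apart from the other WT libraries. Zm00001d041746 had 53.1, 54.4 and 56.4 FPKM in GARR2KO and 9.52, 9.53 and 10.4 FPKM in WT. In that gene the replicates of each genotype were close together. Zm00001d042541 had 51.2, 47.2 and 45.3 FPKM in GARR2KO and 8.13, 8.60 and 9.86 FPKM in WT. Zm00001d021119 had 36.4, 40.1 and 41.3 FPKM in GARR2KO and 7.97, 6.68 and 8.14 FPKM in WT. Their ratios of reads, 5.44 (5.15 to 5.75) and 5.16 (4.84 to 5.49), had overlapping intervals.

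Summed over the 52 genes, the level was 1776 ± 55.6 FPKM in GARR2KO and 245 ± 15 FPKM in WT (SD, n = 3 each), a ratio of 7.26. This was 0.286% of the summed FPKM of a library in GARR2KO and 0.0372% in WT. Zm00001d023516 alone made up 27.8% of the sum in GARR2KO and 36.1% in WT. Without it the sums were 1283 ± 17.8 FPKM in GARR2KO and 156 ± 9.44 FPKM in WT, a ratio of 8.21. The 22 trace genes supplied 16.8% of the GARR2KO sum and 1.2% of the WT sum.

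Near the threshold the values changed without a break. Just inside it were Zm00001d044395, Zm00001d027048 and Zm00001d014637, with differences of 2.09, 2.02 and 2.02. Zm00001d014637 had 9.33, 9.68 and 12.0 FPKM in GARR2KO and 2.35, 1.56 and 1.53 FPKM in WT. Zm00001d044395 had 12.8, 13.6 and 13.0 FPKM in GARR2KO and 2.67, 2.04 and 2.31 FPKM in WT. Just outside were Zm00001d012010, Zm00001d041300 and Zm00001d001491, with differences of 1.99, 1.99 and 1.99. Zm00001d012010 had 109, 118 and 115 FPKM in GARR2KO and 26.5, 27.1 and 30.2 FPKM in WT, nearly the values of Zm00001d027048. Zm00001d041300 averaged 9.53 ± 1.34 FPKM in GARR2KO and 1.74 ± 0.921 FPKM in WT, and Zm00001d001491 averaged 4.46 ± 1.31 FPKM in GARR2KO and 0.384 ± 0.335 FPKM in WT (SD, n = 3 each).

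Replicate spread in GARR2KO was much like that of the other genes. The median coefficient of variation of the 52 genes was 7.38% in GARR2KO and 29.5% in WT, against 6.53% in GARR2KO and 7.15% in WT over all tested genes. The large WT values came from the genes near 0: the median WT coefficient was 86.8% among trace genes, 22.9% among low genes and 9.32% among well expressed genes. On the log2(FPKM + 1) scale the median SD of the 52 was 0.098 in GARR2KO and 0.112 in WT, against 0.081 in GARR2KO and 0.090 in WT over all tested genes. The most variable gene within GARR2KO was Zm00001d051050, named after its values were seen, with 5.90, 4.54 and 3.57 FPKM there and 0.194, 0.470 and 0.229 FPKM in WT. Among the WT libraries, replicate 3 held the highest value for 26 of the 52 genes (50%), where it did so for 34.7% of all tested genes. Among the GARR2KO libraries, replicate 3 was highest for 22 (42.3%, against 33.9% of all tested genes).

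The recovered gene lengths, which entered the rule only through the FPKM values, were on the short side. The median length was 1219.5 bp over the 52 genes and 1793 bp over all tested genes. A length under the lower quartile of the tested genes, 1116 bp, was found for 23 of the 52, and a length over the upper quartile, 3058 bp, for 6. Short length was not particular to these genes: the median was 1068 bp in the 60 genes that fell by the mirrored rule and 835.5 bp in the 20 strong rises at 0 in all WT libraries. Lengths were compared as a description, with no test. Within the set the shortest gene was Zm00001d021451, of 250 bp, where 1 read counts for more FPKM. Its WT values differed widely among replicates, at 0.576, 1.91 and 3.62 FPKM from 28 reads, against 10.5, 13.6 and 11.9 FPKM in GARR2KO.

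Strong falls were a set of similar size. The mirrored rule, a difference of -2 or less with all GARR2KO values below all WT values and at least 1 GARR2KO value above 0, gave 60 genes. Those 60 had a median of 1.32 FPKM in GARR2KO and 15.1 FPKM in WT. The 52 rises had a median of 13.3 FPKM in GARR2KO and 0.798 FPKM in WT. In the genotype where each set was high, the medians were thus close, at 13.3 FPKM for the rises and 15.1 FPKM for the falls. The median size of the difference was -2.43 for the falls and 2.57 for the rises. A test of this contrast is not available, because both sets were chosen on the same values.

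Genes next to the strong rises included several large changes in either direction. Neighbours were the nearest tested genes along the identifier numbers that were no members and lay outside the 4 runs. Their own values bear on the rule only in that a gene meeting it would have been a member. Of 102 nearest neighbours, 14 (13.7%) had changed 2-fold or more on the log2(FPKM + 1) scale at an adjusted p under 0.05 (limma-trend). The share was 3.62% over all 20932 genes tested there, and 3.38% (705 of 20880) without the members themselves. The 14 were mixed in direction, 8 higher in GARR2KO and 6 lower. At any size, 49 of the 102 neighbours (48.0%) were called in either direction, against 43.8% of all genes tested there.

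The share of neighbours changed 2-fold or more was lower at each greater distance. It was 6.37% of 408 genes at places 2 to 5, 4.82% of 1412 at places 6 to 20, 3.67% of 2617 at places 21 to 50 and 3.07% of 3485 at places 51 to 100. For the 39 members over 1000 identifier numbers away from any left-out run, 11 of 76 nearest neighbours (14.5%) had changed 2-fold or more. These shares are descriptions with no test of their own, because neighbouring genes may not be independent. The median distance between a member and its nearest tested gene on either side was 2 identifier numbers, and 46 of the 104 such gaps were of 1. That the numbers follow the order on the chromosome was not tested. Reads shared between overlapping neighbours were not tested either.

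**Figure D4:**
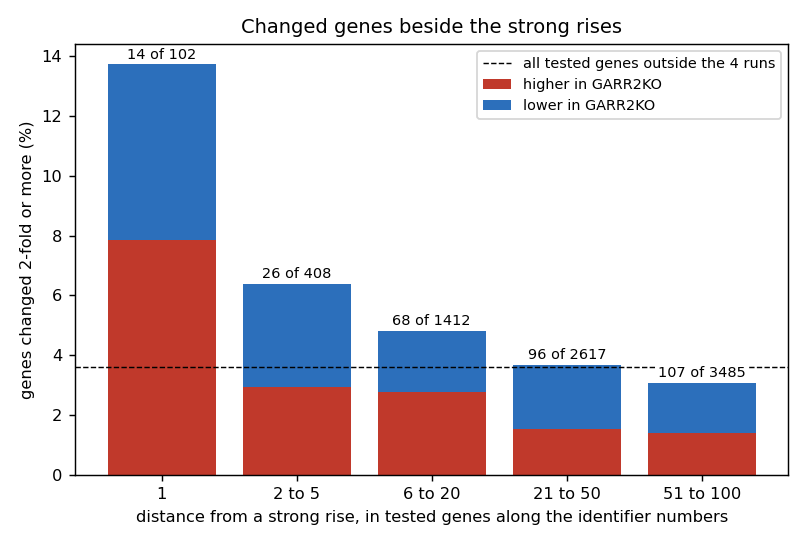
Percent of tested genes changed 2-fold or more by distance from a strong rise, counted in tested genes along the identifier numbers; red marks genes higher and blue genes lower in GARR2KO, and the dashed line is the 3.62% of all genes tested beyond the left-out runs. The share is 13.7% at the nearest place and reaches the line at places 21 to 50.

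The neighbours Zm00001d028303 and Zm00001d028304 both differed widely between genotypes. The member Zm00001d028303 had 17.6, 17.7 and 18.1 FPKM in GARR2KO and 0.827, 0.698 and 1.09 FPKM in WT. Its neighbour Zm00001d028304 had 1.04, 0.390 and 1.02 FPKM in GARR2KO and 30.0, 25 and 31.4 FPKM in WT, and so fell by 4.05 on the log2(FPKM + 1) scale (SE 0.155, adjusted p = 5.8e-07, limma). The pair therefore moved in opposite directions, and neither gene's genotypes overlapped. Both were named after their values were seen, as were the other neighbours given here.

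Other neighbours rose, and the members beside them came from every class of WT level. Zm00001d017119, beside Zm00001d017120, had 193, 205 and 203 FPKM in GARR2KO and 63.3, 61.9 and 64.0 FPKM in WT, a log2 difference of 1.65 (SE 0.045, adjusted p = 8.26e-08, limma). Zm00001d027047, beside Zm00001d027048, had 51, 52.8 and 46.7 FPKM in GARR2KO and 14.5, 14.3 and 14.7 FPKM in WT, a difference of 1.72 (SE 0.056, adjusted p = 2.54e-07, limma). Both pairs thus shared a direction. Zm00001d020065, beside Zm00001d020068, had 6.09, 2.97 and 4.99 FPKM in GARR2KO and was listed at 0 in every WT library. Its recovered length was only 73 bp, shorter than a read of 150 bp, and its GARR2KO libraries held 9, 4 and 7 reads. It counts among the neighbours changed 2-fold or more on these few reads.

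Some members had neighbours that fell by smaller amounts. Zm00001d004626, beside Zm00001d004624, had 6.09, 5.87 and 6.53 FPKM in GARR2KO and 21.1, 18.6 and 21.4 FPKM in WT, and fell by 1.57 on the log2 scale (SE 0.071, adjusted p = 1.53e-06, limma). Zm00001d013036 had a changed gene on each side. Zm00001d013035 rose to 3.33 ± 0.495 FPKM in GARR2KO, against 0.851 ± 0.0806 FPKM in WT, and Zm00001d013038 fell to 1.75 ± 0.398 FPKM in GARR2KO, against 4.47 ± 0.227 FPKM in WT (SD, n = 3 each). The changes on both sides of this member thus ran in opposite directions.

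**Figure D5:**
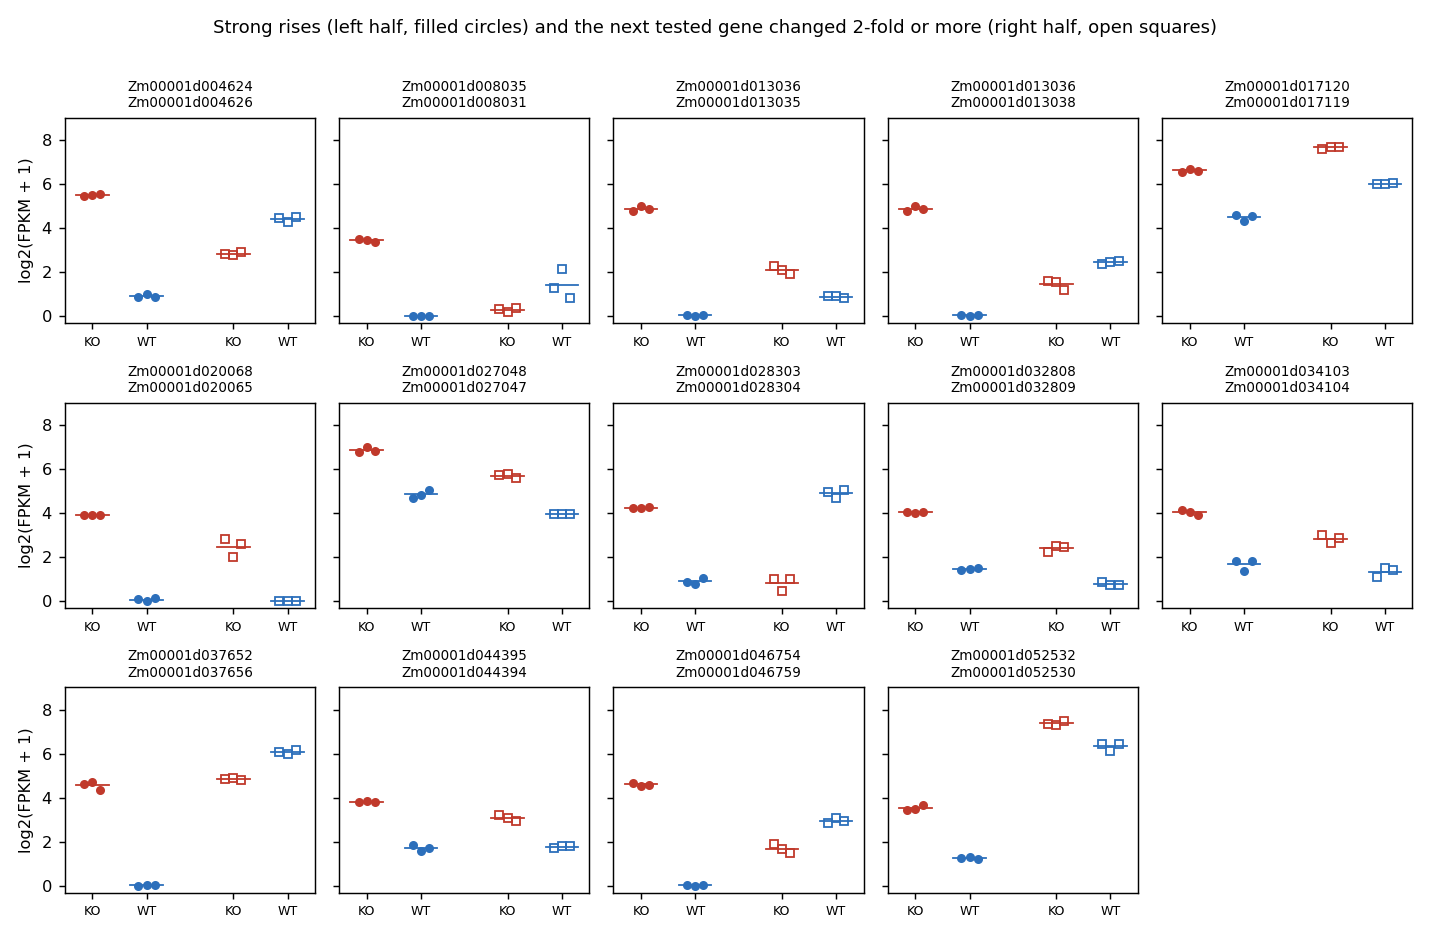
log2(FPKM + 1) in each library for the 14 nearest neighbours that changed 2-fold or more (open squares, right side of each panel) and the strong rise beside each (filled circles, left side), with GARR2KO (KO) in red, WT in blue and bars at the means of 3 libraries. The neighbours in 8 panels were higher and those in 6 panels were lower in GARR2KO.

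Some members lay beside the left-out runs, and each stretch of numbers held few of them. Zm00001d008856 was 18 numbers before the first run and Zm00001d009612 was 46 numbers after it. Zm00001d020068 and Zm00001d020209 both lay in the gap between the second and the third run. Those near the edges did not stand apart in level: Zm00001d008856 had 15.4, 15.9 and 16.5 FPKM in GARR2KO and 2.45, 1.72 and 1.92 FPKM in WT, and Zm00001d009612 had 14.0, 11.6 and 11.9 FPKM in GARR2KO and 1.68, 1.86 and 1.92 FPKM in WT. Per 1000 tested genes outside the runs, the members numbered 4.14 (7 of 1690) in identifiers 5000 to 9999, the stretch that holds the first run. In identifiers 45000 to 49999 they numbered 0.998 (2 of 2004). These were the extremes of the 11 stretches of 5000 numbers and rest on few genes. The other stretches that hold a left-out run had 3.92 (identifiers 20000 to 24999), 3.75 (15000 to 19999) and 2.53 (40000 to 44999). Every stretch without a run was lower, at 0.998 to 2.46. Whether members are spread unevenly along the numbers was not tested. Besides the adjacent pair Zm00001d015497 and Zm00001d015498, the closest members were 14 tested genes apart, in the pairs Zm00001d021431 with Zm00001d021451 and Zm00001d027048 with Zm00001d027240.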

How the data were processed

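The authors deposited 1 table of gene identifiers and values per library, without headers. The deposited values were taken as FPKM, since Cufflinks, Cuffdiff, TopHat2 and the build B73 RefGen_v4 are named in the submitters' processing notes, without versions. RPKM would look alike, and no source used here gives the annotation release. The members and lists were chosen with earlier results of these data known. Whole reads were recovered from the steps of low values: each gene was given the smallest read numbers for which all libraries held whole reads (within 0.002) and the gene a whole length (within 0.02 bp). Without the length condition, 99.34% of 1818 genes still gave a whole length. Reads that share a common factor in all libraries may be understated. Ratios of reads were divided by the scaling totals that the steps imply. Intervals are exact (Clopper-Pearson) at 95%.

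Genotype alone was fitted to log2(FPKM + 1) across the 21531 genes whose mean reached 1 FPKM, by limma-trend in R 4.3.3 with limma 3.58.1, two-sided, with Benjamini-Hochberg adjustment and a threshold of 0.05. The scale understates changes of low genes. Read recovery and fit were tested on simulated data. Named members were the 10 largest differences, the 5 highest GARR2KO and then the 5 highest WT means among members not yet picked, the 3 smallest differences, the 3 genes just outside and adjacent members. The gene and marker lists set down for this study had no matched identifier and were not tested.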

Additional observations from a re-analysis of the deposited data

How the results depend on the processing

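The 52 genes became 117 with a pseudocount of 0.1, which shrinks low values less. All 52 were among the 117, as a smaller pseudocount can only enlarge the difference of a gene that meets the rule. The 65 added genes had a median of 3.86 FPKM in GARR2KO. By construction, a minimum difference of 1 gave 349 genes and one of 3 gave 17. The other settings gave 38 (minimum mean of 5 FPKM, fewer genes tested) to 57 genes. Without a minimum mean all 52 were kept by construction. Median-of-ratios, quantile and summed-FPKM scaling kept all 52 too. Leaving out each library gave 49 to 57 genes, and 41 of the 52 met the rule every time. Of the other 11, 7 had only 0 left in WT and 4 fell under the difference. Zm00001d027048 fell under it without GARR2KO replicate 2 and without WT replicate 1 or 2, Zm00001d014637 without GARR2KO replicate 3 and without WT replicate 2 or 3, Zm00001d021451 without WT replicate 1 and Zm00001d051050 without GARR2KO replicate 1. The median difference, 2.57, was 3.57 with a pseudocount of 0.1, 2.57 to 2.63 under the 3 scalings and 2.54 to 2.62 without any 1 library. No difference of the 24 named members changed sign among 240 recomputed values. For the pseudocount and for leaving out a library, the rule fixes that outcome in advance. Under the 3 scalings a change of sign was hardly possible either, for differences of at least 2. Nothing is therefore read from that count. The 14 nearest neighbours changed 2-fold or more became 6 of 65 with a minimum mean of 5 FPKM (9.23%, against 3.24% outside the runs), where fewer genes were tested. They numbered 13 to 18 under the other fits and 11 to 16 without 1 library. For members over 1000 numbers from a run they were 11 of 76. The share over all genes outside the runs changed with the fit too. It was 5.95% with voom on recovered reads, the fit that gave 18 of 102 neighbours (17.6%). With a pseudocount of 0.1, which gave 16 of 102 (15.7%), it was 5.74%. In the other fits and without 1 library it was 2.7% to 3.78%. A higher count of neighbours is therefore not by itself a larger excess. The settings for neighbours were picked with the data already seen. Same-numbered libraries deviated with correlations of -0.051, -0.046 and 0.049, so they were not treated as pairs. With the replicate block 8963 of all genes were called, against 9517 without it, and 7943 to 8847 without 1 library. Higher calls were 45.4% of these, 55.2% with voom on recovered reads and 59.3% with summed-FPKM scaling. Tests of the fixed gene lists were not run. Genes with 1 to 3 WT reads have no firm WT level at this depth.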
